A study of Oryza sativa with 12 samples.

Results

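The abscission zone of rice is a thin cell layer at the base of the spikelet, above the pedicel, in which the mature grain breaks away. RNA of this tissue, collected on the day of flowering, was sequenced from the line labelled oscct, a mutant, and from the line labelled CK, its wild type, with 3 libraries each and 5 plants pooled in every library. The title of the series names OsCCT22, OsSh1 and OsCAD2 as a module of seed shattering that works by way of lignin. The other libraries of the series come from a further mutant, ossh1, and from WT, the wild type it was paired with, again 3 each, and they are used here beside the oscct results. All plants were field-grown, with more than 1 growing place named, the treatment was the same for mutants and wild types per the labels, and neither the place of a library, the allele carried by oscct nor the variety behind each line is given in the sources used here. Line background, place and mutation can therefore not be told apart.

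The table that pairs oscct with CK held 13301 rows for 11688 gene IDs, against 55986 IDs in the ossh1 table, and rows of one ID were summed. It lists only rows selected for a difference between oscct and CK, so whether a listed ID changed is given by its presence, and the values below describe size, direction and function. Values that are not whole occurred in 3261 IDs listed 1 time. Of 1214 IDs with several rows and values not all whole, 595 added up to whole numbers in all 6 libraries. Whether the selection left out other rows of an ID was not tested, so a summed count may cover only part of a gene. Of the 11688 IDs, 11518 passed the filter on low counts and 170 did not. The listed counts added up to between 12526152 and 12812857 in oscct and between 12943437 and 13318397 in CK, and they are sums over selected rows, not library depth. Counts below are unscaled, and fold changes are scaled by edgeR's trimmed mean of M values (TMM), which put the effective size at 13304431 to 13601461 in oscct and 12209225 to 12576061 in CK. The files give IDs of the MSU rice annotation without names. Names below are those of published rice nomenclature, paired with IDs from memory and kept only where the name was found once on the same chromosome, in the same order, in RefSeq's gene table. IDs without such a match are given by ID alone and are left out of all counts over gene lists. In the lignin, secondary wall, photosynthesis and WRKY lists, listed IDs of this kind outnumber those counted. The locus of OsCCT22 is not known from these sources, so the targeted gene was not checked.

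Lignin is a polymer of monolignols, alcohols made from phenylalanine through steps that include 4-coumarate:CoA ligase (4CL) and cinnamyl alcohol dehydrogenase (CAD). It is laid down in secondary walls beside cellulose, which is made there by cellulose synthases other than those of growing primary walls. In rice spikelets the abscission zone is known as a layer of small cells with little lignin between lignified neighbours, and several transcription factors of the YABBY, homeobox and AP2 families are known to shape it.

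The 2 genes of the title with a known locus moved in opposite directions in oscct. CAD2 (LOC_Os02g09490, chromosome 2), a cinnamyl alcohol dehydrogenase of the last step of monolignol synthesis, had 1984, 2130 and 1983 counts in oscct and 819, 816 and 821 counts in CK. All oscct libraries lay above all CK libraries, with means of 2032 ± 84.6 in oscct and 819 ± 2.52 in CK (SD, n = 3 each). The log2 fold change of CAD2 was 1.20 (SE 0.04, adjusted p = 2.94e-13, quasi-likelihood test of edgeR with Benjamini-Hochberg adjustment). OsSh1 (LOC_Os03g44710, chromosome 3), a YABBY transcription factor whose loss reduces shattering, had 848, 875 and 891 counts in oscct and 1344, 1380 and 1416 counts in CK. Here all oscct libraries lay below all CK libraries, with means of 871 ± 21.7 in oscct and 1380 ± 36.0 in CK (SD, n = 3 each), and the log2 fold change was -0.77 (SE 0.04, adjusted p = 3.97e-11, same edgeR test). OsSh1 was listed in 2 rows whose estimated counts were not whole, and in both rows all oscct values lay below all CK values. Across all IDs tested, 99.2% passed this test, 48.9% higher and 50.3% lower in oscct, because the rows were selected for a difference. The adjusted p-values therefore have no usual meaning, and they set a difference against the spread among 3 pools of plants per group.

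The 3 other listed regulators of shattering with a checked name changed less than 2-fold. SHAT1 (LOC_Os04g55560), an AP2 transcription factor needed for the abscission zone, had 955, 940 and 1039 counts in oscct and 569, 562 and 580 in CK, a log2 fold change of 0.67 (SE 0.05). The KNOX homeobox gene OSH1 (LOC_Os03g51690) had 3788, 3688 and 3833 counts in oscct and 2004, 1991 and 2045 in CK, a log2 fold change of 0.79 (SE 0.03). Its relative OSH15 (LOC_Os07g03770) had 7333, 7759 and 7790 counts in oscct and 5283, 5047 and 5013 in CK, a log2 fold change of 0.47 (SE 0.03). In all 3 genes the oscct libraries lay above the CK libraries. RNA of these genes, known to act in this zone, was counted in all 6 libraries, and which cells it came from was not tested. OsLG1 and OsGRF4, both also known to affect shattering, were not in the table. For 5 further regulators on the list the pairing of name and ID could not be checked, 3 of them with an ID in the table, and their values are not given.

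Most of the listed lignin genes with a checked name were higher in oscct. Of 18 lignin pathway genes with a checked name, 10 were listed, and of these 7 were higher and 3 lower, and their median log2 fold change was 0.82 against -0.09 over all IDs tested. At least 2-fold higher were 4 of the 10, where 14.3% of all IDs tested were at least 2-fold higher and 12.6% at least 2-fold lower. The ligase gene 4CL3 (LOC_Os02g08100) had 5800, 5712 and 5571 counts in oscct and 1857, 1896 and 1742 in CK, a log2 fold change of 1.53 (SE 0.04). It was thus high in all 3 oscct libraries, and no oscct library came near the range of CK.

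A tandem group of CAD relatives on chromosome 9 moved the same way. CAD8B (LOC_Os09g23540) had 283, 269 and 273 counts in oscct and 80, 70 and 101 in CK, a log2 fold change of 1.60 (SE 0.11). CAD8A (LOC_Os09g23530) had few counts, with 25, 25 and 29 counts in oscct and 10, 7 and 6 in CK, a log2 fold change of 1.65 (SE 0.29). CAD8C (LOC_Os09g23550) had 807, 831 and 828 counts in oscct and 438, 398 and 378 in CK, a log2 fold change of 0.91 (SE 0.06). No oscct library overlapped with a CK library in these genes, which lie side by side and resemble each other, so reads shared between them could have been divided by the authors' estimation. The 3 lignin genes lower in oscct had log2 fold changes from -0.50 to -0.27, smaller than any of the rises named here.

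The largest rises among wall genes with a checked name were those of secondary wall cellulose. CESA4 (LOC_Os01g54620), CESA7 (LOC_Os10g32980) and CESA9 (LOC_Os09g25490) encode the 3 subunits of the cellulose synthase of rice secondary walls, and BC1 (LOC_Os03g30250), Brittle Culm 1, is a COBRA-like protein of cellulose assembly in those walls. CESA4 had 470, 422 and 475 counts in oscct and 32, 41 and 45 in CK, a log2 fold change of 3.42 (SE 0.11). CESA7 had 354, 284 and 374 counts in oscct and 17, 12 and 17 in CK, a log2 fold change of 4.34 (SE 0.17). CESA9 had 282, 264 and 318 counts in oscct and 12, 19 and 16 in CK, a log2 fold change of 4.08 (SE 0.15). The 3 synthase subunits were thus higher than in CK together in the same libraries. All 3 had far more counts in the other pair of lines. Those are unscaled read counts, set beside estimated counts whose depth is unknown. CESA7 had 8668, 8347 and 8555 counts in ossh1 and 16466, 16823 and 17568 in WT. BC1 had 138, 139 and 136 counts in oscct and 17, 15 and 14 in CK, a log2 fold change of 3.05 (SE 0.16). The summed count of these 4 genes ranged from 1109 to 1303 in oscct and from 78 to 92 in CK. All 4 listed members of 4 with a checked name were at least 2-fold higher, and the median of their log2 fold changes was 3.75. Among all IDs tested, 14.3% were at least 2-fold higher. Listed IDs of the secondary wall list without a checked name, more than these 4, are not counted.

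**Figure D1:**
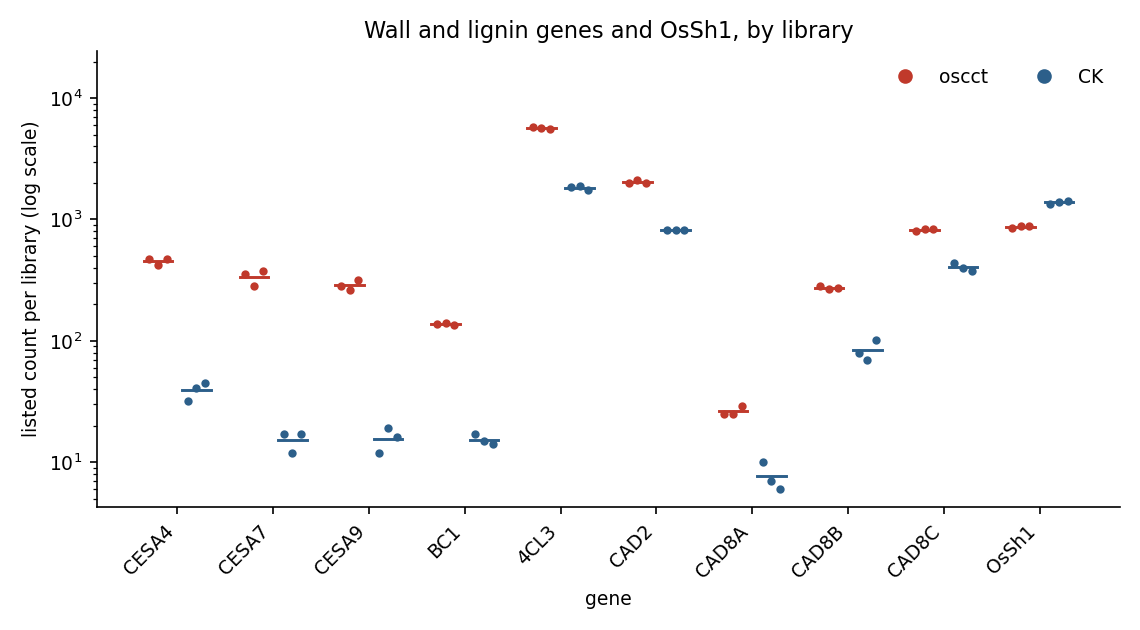
Listed counts per library (log scale) of wall and lignin genes and OsSh1, with oscct in red left of CK in blue; each point is 1 library and each bar the mean of 3. The 4 secondary wall genes CESA4, CESA7, CESA9 and BC1 sum to at most 92 counts in CK, the lignin genes shown are higher in oscct, and OsSh1 is lower in oscct.

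The cellulose synthases of primary walls moved in the same direction by less. Of 6 with a checked name, 5 were listed and all 5 were higher in oscct, and the median of their log2 fold changes was 0.61. Among all IDs tested, 48.9% were higher. CESA8 (LOC_Os07g10770) had 1094, 1093 and 1139 counts in oscct and 369, 394 and 423 in CK, a log2 fold change of 1.38 (SE 0.05), and was the only 1 of the 5 past 2-fold. Expansins, proteins that loosen the wall, had few counts, and 5 of 11 were listed. EXPB3 (LOC_Os10g40720), EXPA2 (LOC_Os01g60770), EXPA7 (LOC_Os03g60720) and EXPB6 (LOC_Os10g40700) were higher in oscct with log2 fold changes of 2.44, 2.27, 1.80 and 1.78. EXPB4 (LOC_Os10g40730) went the other way, with 27, 26 and 26 counts in oscct and 110, 161 and 161 in CK, a log2 fold change of -2.56 (SE 0.19).

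Genes of S-adenosylmethionine, a general methyl donor of the cell, moved both ways at high counts. SAM1 (LOC_Os05g04510), an S-adenosylmethionine synthetase, had 19081, 19158 and 19824 counts in oscct and 8706, 8622 and 8808 in CK, a log2 fold change of 1.04 (SE 0.02). Its relative SAM2 (LOC_Os01g22010) had 13330, 13200 and 13495 counts in oscct and 7142, 6573 and 6891 in CK, a log2 fold change of 0.85 (SE 0.03). SAMDC (LOC_Os04g42090), the decarboxylase that draws on the same compound for polyamine synthesis, had 45156, 45573 and 46674 counts in oscct and 69065, 67167 and 67256 in CK, a log2 fold change of -0.68 (SE 0.02). The synthetases were thus higher and the decarboxylase lower in all oscct libraries, and these names were looked up after the values were seen. LOC_Os02g41630 had 52539, 52365 and 53909 counts in oscct and 21960, 22039 and 22035 in CK, a log2 fold change of 1.15 (SE 0.02), and was, like SAM1, 1 of the 5 largest rises among the 200 IDs with the highest mean counts.

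Rice makes diterpenoid phytoalexins, antimicrobial compounds such as momilactones and phytocassanes, from a diphosphate that copalyl diphosphate synthases (CPS) and kaurene synthase-like enzymes (KSL) cyclise and cytochrome P450 enzymes (CYP) oxidise. Many of these genes lie in clusters on chromosomes 4 and 2. This list held more IDs at least 2-fold higher in oscct than any other. Of 15 with a checked name, 14 were listed and all 14 rose at least 2-fold in oscct, and the median of their log2 fold changes was 3.18. Among all IDs tested, 14.3% were at least 2-fold higher. The summed count of the 14 genes ranged from 13464 to 14301 in oscct and from 1377 to 1443 in CK.

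In the chromosome 4 cluster, CPS4 (LOC_Os04g09900), which makes the precursor of momilactones, had 2065, 1991 and 2176 counts in oscct and 101, 103 and 104 in CK, a log2 fold change of 4.23 (SE 0.06). KSL4 (LOC_Os04g10060), the next cyclase of that route, had 1405, 1333 and 1411 counts in oscct and 117, 92 and 86 in CK, a log2 fold change of 3.70 (SE 0.08). CYP99A2 (LOC_Os04g10160) had 981, 994 and 983 counts in oscct and 50, 40 and 28 in CK, a log2 fold change of 4.53 (SE 0.10). In these 3 genes every oscct library stood far above every library of CK. CYP99A3 (LOC_Os04g09920), like CYP99A2 a P450 of momilactone synthesis, had 537, 494 and 552 counts in oscct and 32, 29 and 23 in CK, a log2 fold change of 4.12 (SE 0.11). Between the serial numbers 9900 and 10160 of that chromosome, 6 IDs were listed and all 6 rose at least 2-fold in oscct, and the median of their log2 fold changes was 4.17. The other 2 of them have no checked name, LOC_Os04g10000 with a log2 fold change of 4.11 (SE 0.18) and LOC_Os04g10010 with 4.79 (SE 0.18).

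In the chromosome 2 cluster, CPS2 (LOC_Os02g36210), which makes the precursor of phytocassanes, had 2875, 2637 and 2840 counts in oscct and 356, 339 and 366 in CK, a log2 fold change of 2.87 (SE 0.05). KSL7 (LOC_Os02g36140), the cyclase of the phytocassane route, had 2117, 2003 and 2146 counts in oscct and 229, 245 and 254 in CK, a log2 fold change of 2.99 (SE 0.05). CYP71Z7 (LOC_Os02g36190), a P450 of the same route, had 1253, 1257 and 1309 counts in oscct and 89, 71 and 86 in CK, a log2 fold change of 3.84 (SE 0.07). All 3 were high in each oscct library and low in each CK library. The neighbouring P450 gene CYP71Z6 (LOC_Os02g36150) moved least of all 14 genes, with 238, 220 and 234 counts in oscct and 69, 96 and 97 in CK, a log2 fold change of 1.29 (SE 0.12). From serial number 36030 to 36280, all 9 listed IDs were at least 2-fold higher, and the median of their log2 fold changes was 2.95. KSL10 (LOC_Os12g30824) on chromosome 12, outside both clusters, had 376, 395 and 423 counts in oscct and 31, 32 and 35 in CK, a log2 fold change of 3.49 (SE 0.11). Genes of these families resemble each other within a cluster, so the authors' estimation could have divided reads among them.

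**Figure D2:**
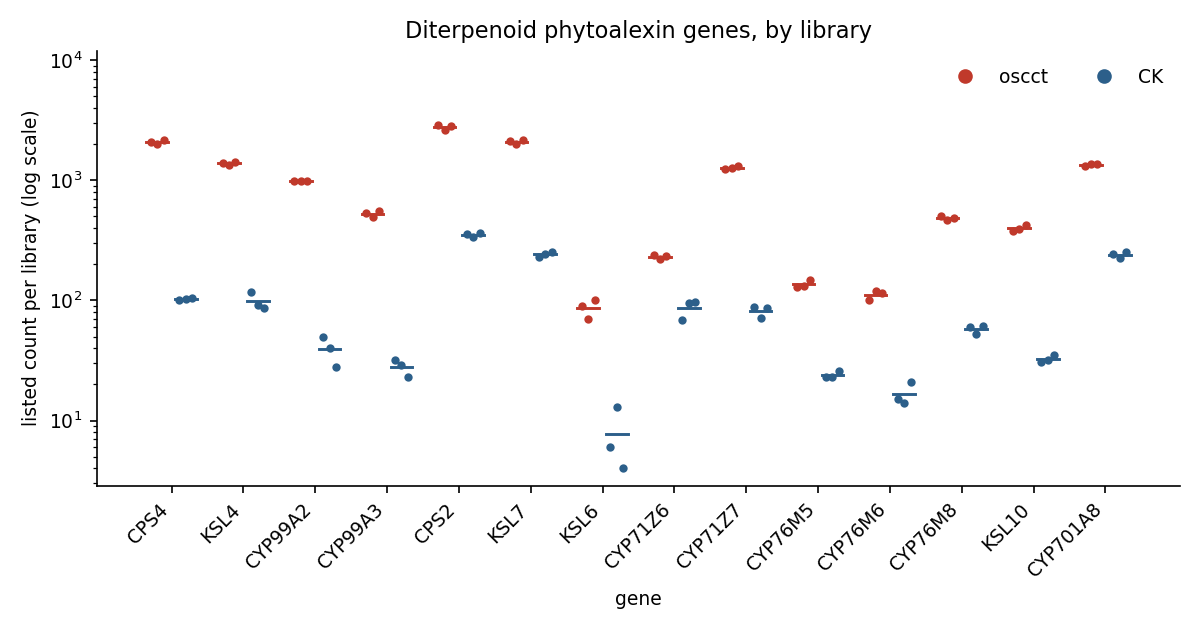
Listed counts per library (log scale) of all 14 listed diterpenoid phytoalexin genes, with oscct in red left of CK in blue; each point is 1 library and each bar the mean of 3. In every gene the 3 oscct libraries lie above the 3 CK libraries.

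Other defence genes had log2 fold changes below the median of the diterpenoid genes, and 1 was lower in oscct. PBZ1 (LOC_Os12g36880), a pathogenesis-related protein of the PR10 family, had 30952, 32759 and 32353 counts in oscct and 5015, 4743 and 4967 in CK. Its log2 fold change of 2.59 (SE 0.03) was the largest rise among the 200 IDs with the highest mean counts. NPR1 (LOC_Os01g09800), a regulator of salicylic acid responses, had 1418, 1474 and 1481 counts in oscct and 704, 688 and 743 in CK, a log2 fold change of 0.92 (SE 0.04). Of the 5 listed defence genes 4 were higher and 1 lower, the chitinase gene CHT1 (LOC_Os06g51060) with a log2 fold change of -0.27 (SE 0.03). All 3 listed WRKY genes of 4 with a checked name were at least 2-fold lower, with log2 fold changes of -1.15 for WRKY24 (LOC_Os01g61080), -1.34 for WRKY76 (LOC_Os09g25060) and -1.34 for WRKY71 (LOC_Os02g08440). Over all IDs tested, 48.9% were higher, 50.3% lower and 12.6% at least 2-fold lower. Genes of flavonoid synthesis also moved both ways. Chalcone isomerase CHI (LOC_Os03g60509) had 638, 687 and 639 counts in oscct and 127, 165 and 135 in CK, a log2 fold change of 2.09 (SE 0.09).

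Genes of water stress had the lowest median of any list. Of 10 with a checked name, 9 were listed and all 9 were lower in oscct, 7 of them at least 2-fold, and the median of their log2 fold changes was -3.91. Among all IDs tested, 50.3% were lower and 12.6% at least 2-fold lower. The summed count of the 9 genes ranged from 15638 to 16252 in oscct and from 33101 to 34558 in CK. DREB1 proteins are AP2 transcription factors that switch on genes of cold and drought response. DREB1B (LOC_Os09g35010) had 21, 30 and 20 counts in oscct and 1004, 941 and 1022 in CK, a log2 fold change of -5.49 (SE 0.10). DREB1A (LOC_Os09g35030) had 16, 18 and 17 counts in oscct and 342, 312 and 351 in CK, a log2 fold change of -4.40 (SE 0.13). DREB1H (LOC_Os09g35020), which lies between them and was named after its values were seen, had 5, 3 and 3 counts in oscct and 145, 180 and 164 in CK, a log2 fold change of -5.54 (SE 0.23). These 3 neighbours on chromosome 9 thus had at most 30 counts in every oscct library, and DREB1C (LOC_Os06g03670) on chromosome 6 showed the same pattern, with 26, 18 and 24 counts in oscct and 316, 302 and 332 in CK.

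Genes of the late response to drying were lower as well. LEA3 (LOC_Os05g46480), a late embryogenesis abundant protein, had 129, 144 and 134 counts in oscct and 2257, 2230 and 2206 in CK, a log2 fold change of -4.15 (SE 0.05). RAB16A (LOC_Os11g26790), a dehydrin induced by abscisic acid, had 686, 708 and 683 counts in oscct and 2554, 2452 and 2370 in CK, a log2 fold change of -1.94 (SE 0.04). RAB16C (LOC_Os11g26760), another dehydrin, was scarce, with 2, 0 and 1 counts in oscct and 21, 16 and 13 in CK. Enzymes that break down abscisic acid did not move as one. ABA8ox1 (LOC_Os02g47470) had 397, 373 and 367 counts in oscct and 2239, 2237 and 2274 in CK, a log2 fold change of -2.68 (SE 0.04), and ABA8ox2 (LOC_Os08g36860) had one of -1.28 (SE 0.09), while ABA8ox3 (LOC_Os09g28390) had one of 0.54 (SE 0.07).

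Jasmonate is sensed through JAZ proteins, repressors whose genes are themselves switched on by the hormone. Of 16 listed jasmonate genes of 19 with a checked name, 13 were lower and 3 higher, and the median of their log2 fold changes was -0.51. Over all IDs tested, 48.9% were higher, 50.3% lower and 12.6% at least 2-fold lower. All 4 falls of at least 2-fold among the jasmonate genes were those of JAZ genes. JAZ9 (LOC_Os03g08310) had 92, 87 and 95 counts in oscct and 1130, 1159 and 1175 in CK, a log2 fold change of -3.77 (SE 0.06). JAZ10 (LOC_Os03g08330) had 226, 233 and 183 counts in oscct and 1104, 1097 and 1109 in CK, a log2 fold change of -2.48 (SE 0.07). JAZ11 (LOC_Os03g08320), between them on chromosome 3, had 1459, 1359 and 1445 counts in oscct and 4705, 4714 and 4812 in CK, a log2 fold change of -1.85 (SE 0.03). These 3 adjacent genes were low together in every oscct library, and the fourth, JAZ13 (LOC_Os10g25230), had 4, 10 and 8 counts in oscct and 49, 28 and 38 in CK.

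Heat shock factors and chaperones, proteins that refold others under stress, were mostly lower too. Of 11 listed, 10 were tested, and 9 of these were lower and 1 higher, 5 at least 2-fold lower, and the median of their log2 fold changes was -0.98. The shares over all IDs tested were 50.3% lower and 12.6% at least 2-fold lower. HSFB2c (LOC_Os09g35790), a heat shock factor, had 78, 91 and 72 counts in oscct and 347, 363 and 370 in CK, a log2 fold change of -2.27 (SE 0.10). HSFB2b (LOC_Os08g43334) had 8, 7 and 8 counts in oscct and 54, 36 and 46 in CK, a log2 fold change of -2.65 (SE 0.27). The small chaperone HSP24.1 (LOC_Os02g52150) had 30, 28 and 32 counts in oscct and 132, 131 and 123 in CK, a log2 fold change of -2.21 (SE 0.14).

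**Figure D3:**
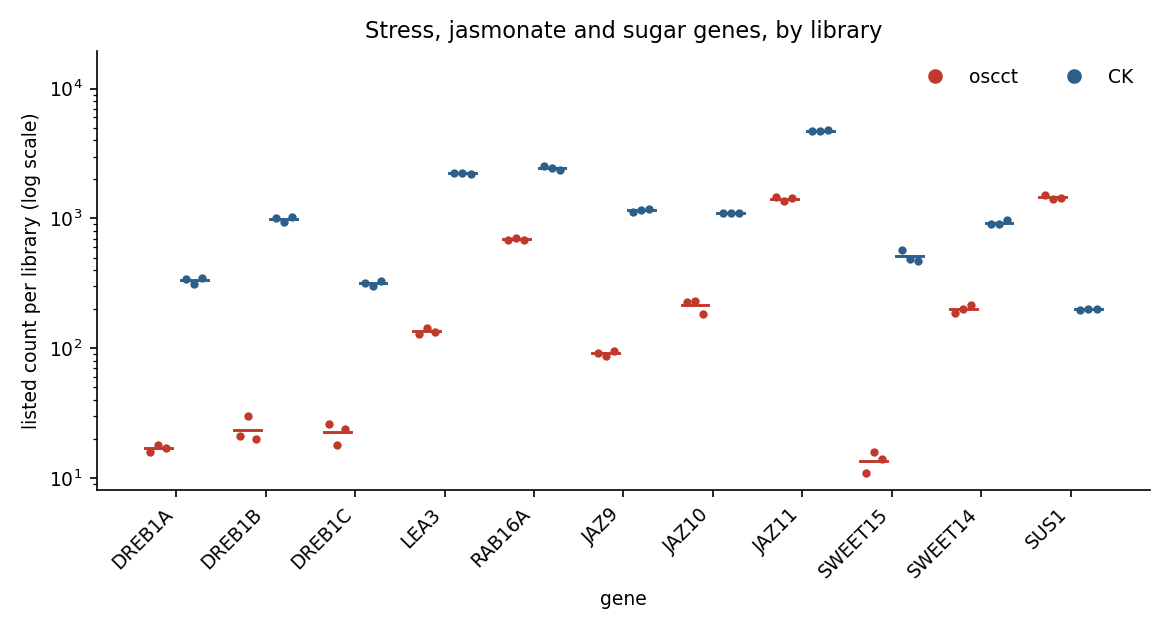
Listed counts per library (log scale) of water stress, jasmonate and sugar genes, with oscct in red left of CK in blue; each point is 1 library and each bar the mean of 3. The DREB1, LEA3, RAB16A, JAZ and SWEET genes shown are lower in all 3 oscct libraries, and SUS1 is higher.

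Genes of sugar movement and use moved both ways, also within families. SWEET proteins export sugars from cells, and sucrose synthases (SUS) split sucrose where it is used. SWEET15 (LOC_Os02g30910) had 11, 16 and 14 counts in oscct and 574, 489 and 470 in CK, a log2 fold change of -5.32 (SE 0.15). SWEET14 (LOC_Os11g31190) had 187, 201 and 216 counts in oscct and 909, 904 and 980 in CK, a log2 fold change of -2.32 (SE 0.06). SWEET13 (LOC_Os12g29220) had the most counts of the 3, with 7284, 6691 and 7503 counts in oscct and 16086, 16475 and 16961 in CK, a log2 fold change of -1.32 (SE 0.03). In these 3 exporters all oscct libraries lay below all CK libraries. Of 7 SWEET genes tested 5 were lower and 2 higher, and SWEET5 (LOC_Os05g51090), with few counts, had a log2 fold change of 1.61 (SE 0.35). SUS1 (LOC_Os03g28330) had 1518, 1422 and 1431 counts in oscct and 198, 201 and 200 in CK, a log2 fold change of 2.76 (SE 0.06). Its relatives SUS2 (LOC_Os06g09450) and SUS4 (LOC_Os03g22120) had log2 fold changes of 0.66 (SE 0.03) and -0.61 (SE 0.02), and SUS3 had too few counts for the test. Over the sugar and starch list, 7 of 17 tested members were higher and 10 lower, against 48.9% and 50.3% of all IDs tested.

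Genes of leaf photosynthesis were listed as markers of green tissue that a dissected zone can hold. Those with a checked name were all lower in oscct, where 50.3% of all IDs tested were lower. Most listed IDs of this list had a name that could not be checked, and they are not counted. The 6 with a checked name, the light-harvesting genes LHCB2 (LOC_Os03g39610) and LHCB1b (LOC_Os01g41710), the photosystem gene PSAH (LOC_Os05g48630), the Rubisco subunit RBCS2 (LOC_Os12g17600), Rubisco activase RCA (LOC_Os11g47970) and glycolate oxidase GLO1 (LOC_Os03g57220), had log2 fold changes from -1.21 for RCA to -0.49 for LHCB2. Their summed count ranged from 19160 to 19845 in oscct and from 34425 to 35183 in CK. In whole tissue, fewer green cells and less of these RNAs per cell cannot be told apart, and the part of tissue makeup in the other lists was not tested. Of 8 anther markers with a checked name, 0 were listed, which says only that they were not selected.

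Auxin keeps abscission zones from separating in many plants, and Aux/IAA genes encode repressors of its signalling that auxin itself induces. Of 38 auxin genes with a checked name, 22 were listed, 16 higher and 6 lower, and their median log2 fold change was 0.97. At least 2-fold higher were 10 of the 22 and at least 2-fold lower 3. Over all IDs tested, 14.3% were at least 2-fold higher and 12.6% at least 2-fold lower, with 48.9% higher and 50.3% lower. IAA20 (LOC_Os06g07040) had 133, 138 and 153 counts in oscct and 14, 11 and 16 in CK, a log2 fold change of 3.25 (SE 0.17). TAR2 (LOC_Os01g07500), a relative of the aminotransferase of auxin synthesis, had 1694, 1606 and 1685 counts in oscct and 296, 269 and 292 in CK, a log2 fold change of 2.43 (SE 0.05). The efflux carrier PIN1a (LOC_Os06g12610) had 677, 775 and 763 counts in oscct and 215, 211 and 220 in CK, a log2 fold change of 1.67 (SE 0.07). The 3 genes stand for synthesis, transport and response, and in each the oscct libraries lay above those of CK. IAA17 (LOC_Os05g14180), IAA10 (LOC_Os02g57250) and IAA1 (LOC_Os01g08320) were higher by log2 fold changes of 1.64, 1.61 and 1.39.

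Cytokinin genes moved in the same direction as auxin genes, and ethylene genes were mixed. Of 10 listed cytokinin genes, 8 were higher and 2 lower, and their median log2 fold change was 1.01. The type-A response regulator RR1 (LOC_Os04g36070), a gene that cytokinin induces, had 303, 347 and 313 counts in oscct and 67, 76 and 59 in CK, a log2 fold change of 2.14 (SE 0.11). The cytokinin oxidase CKX4 (LOC_Os01g71310) had 1639, 1599 and 1683 counts in oscct and 562, 576 and 642 in CK, a log2 fold change of 1.36 (SE 0.05). Ethylene promotes abscission in many plants. Its synthesis genes ACS1 (LOC_Os03g51740), ACO1 (LOC_Os09g27820) and ACS2 (LOC_Os04g48850) had log2 fold changes of -3.11, -1.35 and -1.22. All 5 listed genes of perception and signalling with a checked name were higher, led by the receptor ETR3 (LOC_Os02g57530) with 1.32. Brassinosteroid and strigolactone genes were lower in 5 of 6 cases and gibberellin genes higher in 4 of 6. Over all IDs tested, 48.9% were higher and 50.3% lower, and whether these small counts depart from that was not tested. Of the 6 gibberellin genes, 1 changed sign when scaled by library totals.

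Among developmental regulators most changes were small. Of 14 listed MADS-box genes, transcription factors of floral organs and flowering, 12 were higher and 2 lower, and their median log2 fold change was 0.33, and only MADS4 (LOC_Os05g34940) with 1.06 and MADS47 (LOC_Os03g08754) with 1.04 passed 2-fold. Over all IDs tested, 48.9% were higher and 50.3% lower. YABBY genes act in the outer faces of lateral organs in many plants, and 4 of 5 listed were lower. TOB1 (LOC_Os04g45330), a regulator of spikelet growth, had 8, 5 and 6 counts in oscct and 88, 62 and 63 in CK, a log2 fold change of -3.57 (SE 0.27). OsYAB1 (LOC_Os07g06620) had 474, 473 and 495 counts in oscct and 1080, 1036 and 1154 in CK, a log2 fold change of -1.29 (SE 0.05). DL (LOC_Os03g11600), which specifies carpels, was the 1 higher, with 31, 22 and 31 counts in oscct and 9, 8 and 11 in CK, and OsYAB6 (LOC_Os12g42610) had a log2 fold change of -0.14 (SE 0.03) that turned positive when scaled by library totals. Of 6 listed SPL genes 3 were higher and 3 lower, and 2 changed sign with that scaling. Hd3a (LOC_Os06g06320), the florigen gene, was higher with a log2 fold change of 1.08 (SE 0.04), and Hd1 (LOC_Os06g16370), a flowering gene with a CCT domain, was at 45, 47 and 55 counts in oscct and 105, 59 and 77 in CK.

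**Figure D4:**
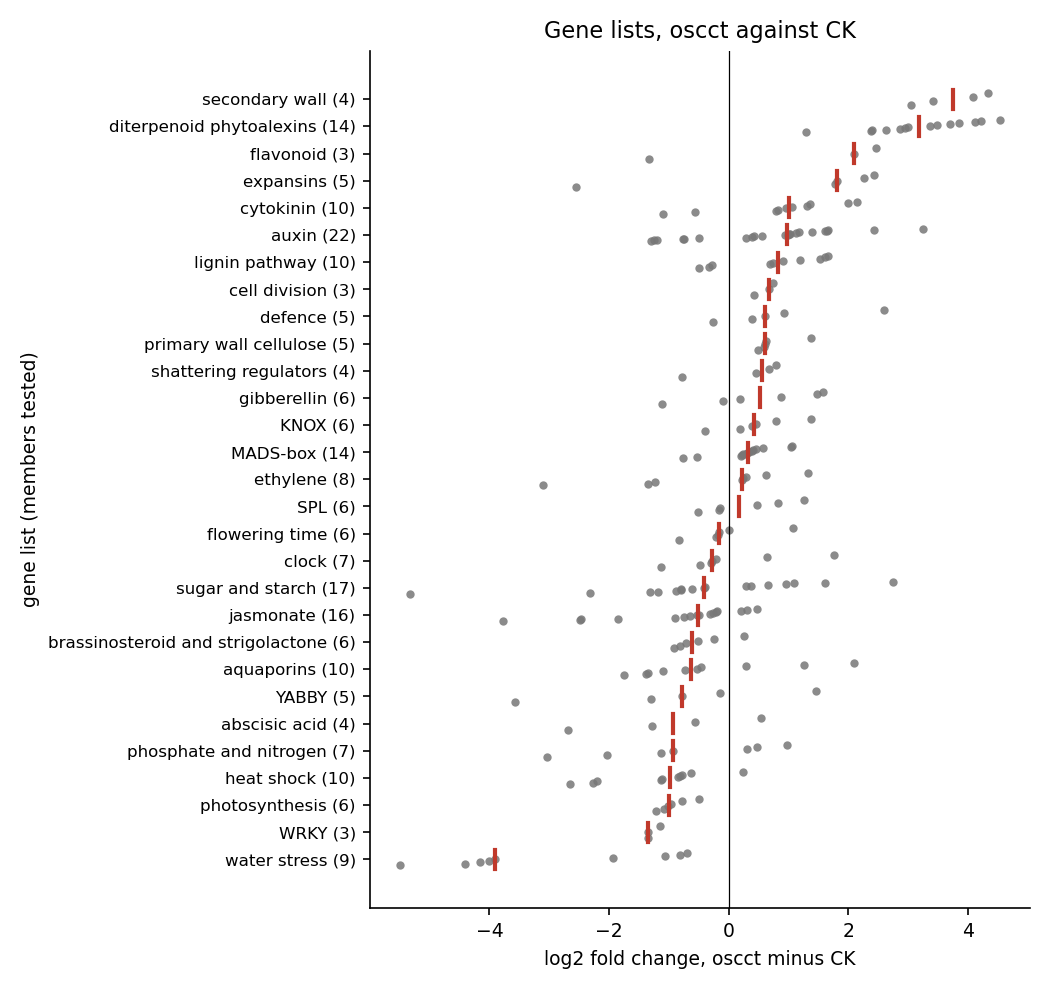
Log2 fold change, oscct minus CK, of every tested member with a checked name, for gene lists with at least 3 such members. Each grey point is 1 gene ID, each red bar the median of the list, and the number of members tested stands in parentheses. Medians run from 3.75 for secondary wall genes to -3.91 for water stress genes, against -0.09 over all IDs tested.

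The mutants were set side by side for the same genes, with no control library in common. All 4 secondary wall genes and all 5 primary wall cellulose synthases listed with a checked name were higher in oscct and lower in ossh1. In ossh1 their medians were -0.75 and -0.31. The 4 secondary wall genes had far more counts in every ossh1 and WT library than in any oscct library. Such counts are unscaled, and the depth behind oscct is unknown. Among the IDs of the oscct table, 68.4% passed the same test in ossh1, 34.9% higher and 33.6% lower. CESA4 had a log2 fold change of 3.42 in oscct and -0.99 in ossh1. In one model of all 12 libraries the difference was 4.41 (SE 0.10), given as a description because the gene was chosen after its values were seen. CAD2 was higher in both, with 1.20 in oscct and 0.28 in ossh1. OsSh1 was lower in both, with -0.77 in oscct and -5.62 in ossh1, where it is the gene named by the line.

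The lists with a median below 0 in oscct were divided in ossh1. Of 13 such lists, 6 had a median above 0 in ossh1, among them water stress, heat shock and aquaporins. The other 7 had one below 0, among them photosynthesis with -0.34, jasmonate with -0.20 and YABBY genes with -1.63. The YABBY list holds OsSh1 itself, and its median in ossh1 is the value of DL, which was higher in oscct with 1.46. Of the 9 water stress genes, all lower in oscct, 7 were higher and 2 lower in ossh1, and LEA3 had a log2 fold change of -4.15 in oscct and 4.23 in ossh1. Of 11 listed heat shock genes 8 were higher in ossh1 and 2 lower. SWEET15 had -5.32 in oscct and 2.09 in ossh1. The clock gene LHY (LOC_Os08g06110), which peaks around dawn, had -1.13 in oscct and 3.08 in ossh1, and LUX (LOC_Os01g74020), a clock gene of the evening, had 1.76 in oscct and -2.88 in ossh1. LHY and LUX had the largest changes in oscct among 7 listed clock genes. Of the 7, 2 were higher and 5 lower in oscct, and 3 higher and 3 lower in ossh1. Their medians were -0.28 in oscct and 0.07 in ossh1. Hours of sampling are not given in the sources used here, so the part of collection time in these differences was not tested. The diterpenoid phytoalexin genes went the same way in both mutants, with 12 of 12 tested higher in ossh1 and a median of 1.54 there. The counts of these genes in the wild types were unlike, however. These counts are unscaled and of unlike kind, estimated over selected rows for CK and read counts for WT. Listed counts added up to between 12943437 and 13318397 in CK and between 30382846 and 32055561 in WT, and the depth behind CK is unknown. CPS4 had 101, 103 and 104 counts in CK and 4479, 4352 and 4475 in WT. KSL4 had 117, 92 and 86 counts in CK and 1328, 1338 and 1422 in WT. In both genes CK was the lowest of the 4 groups, while KSL10 had 0 counts in every ossh1 and WT library. The change differed between the mutants for 80.3% of 11654 IDs tested, and for 12 of 14 diterpenoid, 9 of 9 water stress and 11 of 11 heat shock genes. These IDs entered the test because they were listed for oscct, so the shares are not shares of all genes.

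The largest changes by size fell on IDs without a checked name, except for DREB1H, DREB1B and SWEET15 among the falls. LOC_Os03g02470 (chromosome 3) had 4266, 4105 and 4216 counts in oscct and 0 in all CK libraries, at least 3885-fold higher against 3 counts over the CK group. LOC_Os06g15430 (chromosome 6) had 351, 376 and 355 counts in oscct and 0 in CK, at least 334-fold higher, and LOC_Os10g24170 (chromosome 10) had 127, 121 and 96 counts in oscct and 0 in CK, at least 106-fold higher. These 3 IDs also had from 0 to 4 counts in every ossh1 and WT library, so that oscct was the only group of the series in which they were well above 0. LOC_Os04g13000 had 182, 185 and 200 counts in oscct and 0 in CK, at least 175-fold higher, but 177, 164 and 184 counts in ossh1 and 195, 196 and 225 in WT. In that ID, CK was the group that stood apart. In all, 9 IDs had 0 counts in CK with at least 20 in every oscct library, and 1, LOC_Os06g48050, had the opposite pattern, with 0 counts in oscct and 34, 36 and 38 in CK, at least 38.9-fold lower.

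Of the falls, LOC_Os02g52040 (chromosome 2) had 2, 3 and 3 counts in oscct and 297, 272 and 274 in CK, a log2 fold change of -6.76 (SE 0.19). LOC_Os09g28440 (chromosome 9) had 3, 1 and 2 counts in oscct and 219, 195 and 195 in CK, a log2 fold change of -6.69 (SE 0.23). LOC_Os01g09220 (chromosome 1) had the most counts of the 12 largest falls, with 113, 119 and 134 counts in oscct and 3359, 3338 and 3365 in CK, a log2 fold change of -4.89 (SE 0.05). In each, CK was high in all 3 libraries. Among the 200 IDs with the highest mean counts, the largest fall was that of LOC_Os03g06520, with 4778, 4516 and 5035 counts in oscct and 18331, 18785 and 18882 in CK, a log2 fold change of -2.08 (SE 0.03).

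Over the whole table, differences of at least 8-fold were found for 156 higher and 127 lower IDs. The 5th and 95th percentiles of the log2 fold change were -1.68 and 1.78, with quartiles of -0.58 and 0.62. Size went with abundance. Of 2191 IDs with a mean under 100 counts, 70.4% differed at least 2-fold, against 19.3% of 6134 IDs from 100 to 1000 counts, 11.6% of 3065 from 1000 to 10000, and 14.8% of 128 with 10000 or more. Rows with small differences are absent from the table, so these shares describe the selection as well as the size. The 3 libraries of each group were alike, with a common biological coefficient of variation of 3.03%, and the groups did not overlap in 98.3% of the IDs tested.

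**Figure D5:**
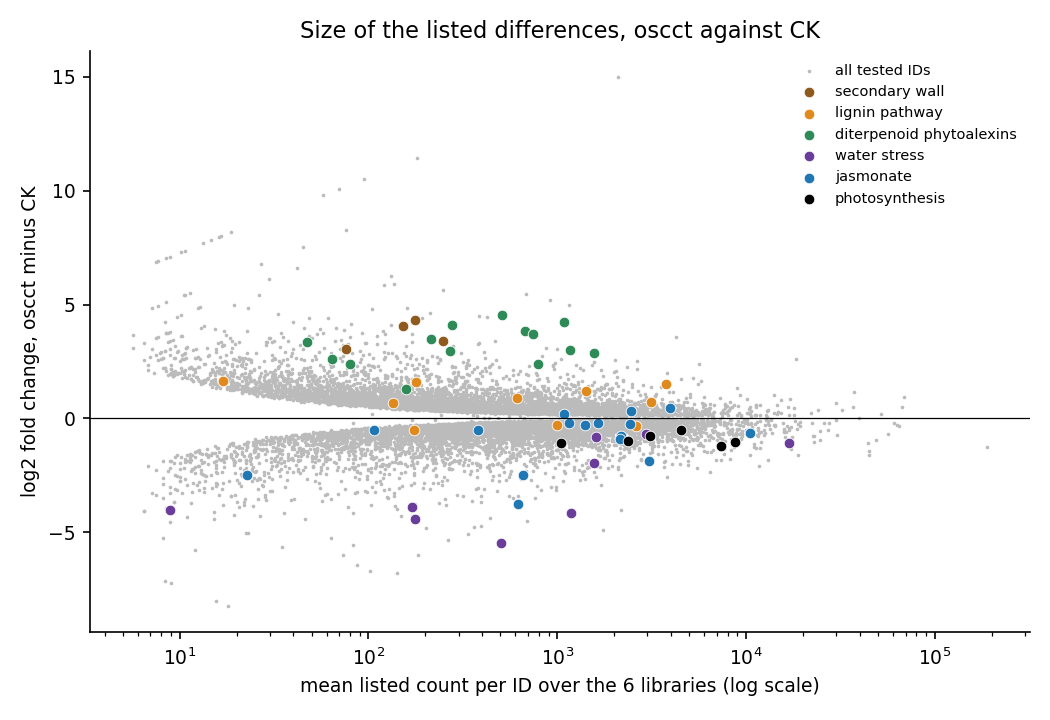
Log2 fold change, oscct minus CK, against the mean listed count over the 6 libraries (log scale) for all 11518 IDs tested, with members of 6 gene lists in colour. The empty band around 0 is where rows are absent from the table, and the 5 highest points are IDs at 0 in CK, whose fitted value depends on edgeR's prior count.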

How the data were processed

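RNA of the abscission zone was sequenced on a BGISEQ instrument from 3 libraries per group, per the labels, which give 5 pooled plants for each. The submitters' processing notes list the tools RSEM 1.3.1, HISAT2 and DESeq2 and the genome build IRGSP-1.0, without role or order, and the sources used here do not say whether counting used strand. The authors deposited estimated counts for oscct and CK, called read counts per the file headers, of which 58.5% are whole, and read counts for ossh1 and WT. How rows of the oscct table were selected is not given, and the depth behind it is unknown. Of its IDs, 1215 are listed in several rows, up to 10, with 10 exact repeats of a row.

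Estimated counts were summed per ID, rounded and tested in edgeR 4.0.16 (R 4.3.3) with filterByExpr, TMM, glmQLFit and glmQLFTest, Benjamini-Hochberg adjustment, a threshold of 0.05 and no replicate block. The difference between mutants was tested over all 12 libraries with scaling factors from each full table. Where all libraries of a group were at 0, the fold was computed with 3 counts for the whole group, and such bounds cover counting error only. The procedure was also run on simulated data in which most IDs did not differ. The listed rows were selected for a difference, so that run does not test the scaling or the calls in this setting. Replicate pairs differed by more than sampling noise (chi-square divided by its degrees of freedom, 1.71 to 2.91). Figures were drawn with matplotlib 3.10.9.

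The genes and lists were chosen with earlier results of these data known. Named were the 12 largest rises and falls with a mean of at least 50 counts, the 5 largest each among the 200 IDs with the highest mean counts, IDs at 0 in one group with at least 20 counts in every library of the other, the shattering regulators and up to 6 members of each other list; not all are printed. The unnamed neighbours in the phytoalexin clusters and the genes given with a difference between mutants were chosen after their values were seen. Neither the files nor the reference table pair MSU IDs with names. The 550 pairs come from memory of published rice nomenclature, and 364 were kept, because the name or a synonym matched 1 RefSeq gene on the same chromosome and in the same order. Of these, 342 matched by the name as listed. Another 16 matched by a synonym picked while looking at RefSeq names near the place of the ID, and 6 were named after values were seen, so those are not independent of the check. RefSeq's table is of another assembly (ASM3414082v1), and no coordinates were taken from it. Roles are background knowledge, not results. A member of the lignin list is not reported here and is left out of that list's counts. Alternatives were RLE and library-total scaling, centring on the range without rows, other filters, DESeq2 1.42.0, limma-voom (limma 3.58.1), the replicate block, the most abundant row, whole-number IDs and each library left out.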

Additional observations from a re-analysis of the deposited data

Results flagged for a closer look

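A direct test of the difference between both mutants, fitted in edgeR over all 12 libraries with Benjamini-Hochberg adjustment, called 9360 IDs. Differences are the log2 fold change of oscct against CK minus that of ossh1 against WT. Among the genes chosen for the comparison, the difference was 5.06 for CESA7, 4.86 for CESA9, 4.41 for CESA4 and 3.76 for BC1, each higher in oscct and lower in ossh1. It was 4.84 for OsSh1, lower in both mutants and far lower in ossh1, and 0.92 for CAD2, higher in both. It was -8.38 for LEA3, -7.42 for SWEET15 and -4.21 for LHY, each lower in oscct and higher in ossh1. These genes were chosen after their values were seen and entered the test because they were listed for oscct, so no p-value is read from it.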

How the results depend on the processing

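Of 1589 values of 102 IDs given with values in the report under the alternatives, all kept their direction and their side of the threshold except 1. OsYAB6 had a log2 fold change of 0.0295 in place of -0.14 when scaled by library totals. With the same scaling, 2 flowering time, 2 SPL and 1 gibberellin gene of the lists also changed sign. All 135 alternative values of the 9 differences between mutants kept their direction and side of the threshold. Scaling by library totals gave a median of 0.080 over the log2 fold changes of all IDs, against -0.088 with TMM, so directions of changes this small depend on the scaling, and gave 5761 higher and 4454 lower IDs. Restricting to IDs with whole numbers, which leaves fewer IDs to test, gave 7087 IDs past the test, 3556 higher and 3531 lower. Leaving out each library in turn gave from 11336 to 11390 IDs past the test, 5642 to 5675 higher and 5667 to 5742 lower. With it, 1648 to 1710 IDs were at least 2-fold higher and 1453 to 1514 at least 2-fold lower, and the difference between mutants was called for 9210 to 9277 IDs. Deviations from the group mean in same-numbered libraries of oscct and CK had correlations of -0.052, -0.037 and 0.028. With 3 libraries per group, such values cannot settle whether the libraries were collected or prepared in pairs. The replicate block gave 11413 IDs past the test in place of 11431 and 9320 in place of 9360 for the difference. Since rows were selected for a difference, the stability of the counts of calls says nothing about which genes changed.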
